A study of Rattus norvegicus with 10 samples.

Results

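The solute carrier (Slc) genes of a rat retinal pigment epithelium cell line were described across 10 RNA-seq libraries. Members were the genes whose name begins with Slc and a digit, with reads in all 10 libraries and a mean level of at least 50 normalised reads. Slc14a1, Slc2a1 and Slc7a11 were left out by the same rule. Of 234 such names listed, 222 had reads in every library, and 39 of these lay below the level, which left 183 members among 11188 genes that passed the same filter. They comprised 179 carriers of 43 subfamilies and 4 genes that carry a solute carrier name but encode other proteins. Just inside the level lay Slc26a2, at a mean of 51.3 normalised reads, and Slc2a9, at 52.7. Just outside it lay Slc25a52, at 48.1, and Slc23a1, at 44.2.

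The cells were RPE-J, an SV40-transformed line of Long-Evans rats, given compounds in culture medium, detached from the flasks with trypsin and sequenced from polyadenylated RNA. PNU-282987, called PNU here, activates the α7 subtype of nicotinic acetylcholine receptors and was given at 100 nM for 30 min, 1 h, 3 h, 8 h or 12 h. Nicotine, the receptor activation control, was given at 1 µM for 12 h or 1 h. MLA, the negative control and an antagonist of that receptor, was given at 100 nM for 12 h or 1 h, and the vehicle DMSO was represented at 12 h. Each of the 10 conditions was 1 library of 1 line, so a difference between 2 of them describes those libraries, has no replicate check and carries no p-value. No vehicle library matched the PNU times from 30 min to 8 h.

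The libraries held 15220638 (PNU 8 h) to 31510333 (MLA 12 h) reads in listed genes. Levels are in normalised reads throughout, the read number divided by 1 factor per library set over all libraries together. They are not divided by gene length, so levels were compared between libraries and not between genes. Intervals are 95% intervals that cover counting error only. In bulk RNA, fewer cells of a kind and less RNA per cell cannot be told apart. Nicotine 1 h and PNU 3 h stood apart from the rest, with a median of 959 and 565 genes at least 1.5-fold away over their 9 pairs, against 156 to 363 for the others. They were each other's closest library, at 232 genes (2.07% of those tested) and 3 of 183 members. Next to nicotine 1 h came PNU 12 h, at 235 genes (2.1%) and 3 members. PNU 12 h itself lay 214 genes from PNU 1 h and 219 from MLA 12 h. DMSO 12 h lay closest to PNU 30 min, at 94 genes (0.84% of those tested), and 0 of 183 members lay 1.5-fold apart there. It lay farther from the 12 h libraries, at 309 genes from PNU 12 h, 278 from nicotine 12 h and 245 from MLA 12 h. For members that differ from DMSO 12 h, the level at 30 min of PNU is therefore given as well. Of 12 pigment epithelium markers, 5 were listed, with a summed level of 5421 to 7756 normalised reads made up mostly of Best1, and Rpe65 and the other 6 had no value and were not analysed here. This sum was 7345 in nicotine 1 h and 7756 in PNU 3 h, against 5421 to 6682 in the other libraries. Listed epithelial markers (3 of 6) summed to 8849 to 9880, Müller glia markers (3 of 3) to 1367 to 1949, immune markers (2 of 4) to 191 to 259, neuron markers (1 of 3) to 244 to 329, endothelial markers (3 of 4) to 39.9 to 95.7 and photoreceptor markers (1 of 3) to 5.39 to 18.4. The Müller glia sum was made up mostly of Glul, at 1340 to 1917. Of 8 fibroblast and mesenchyme markers 5 were listed. Their sum was 123065 in nicotine 1 h and 117496 in PNU 3 h, against 80410 to 99032 in the other libraries. The epithelial sum was lowest in nicotine 1 h. The part of these sums in the differences below was not tested.

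Solute carriers are membrane proteins that move amino acids, sugars, ions, metals, nucleotides and vitamins across the plasma membrane and the membranes of organelles. Many work as exchangers or use the gradient of sodium or protons as their driving force, and several need a partner protein to reach the membrane. In retinal pigment epithelium they carry glucose, lactate, taurine, bicarbonate and chloride between the blood side and the photoreceptor side. Several are controlled at the transcript level. Amino acid carriers are known targets of the transcription factor ATF4, the zinc exporter gene Slc30a1 is a known target of the zinc sensor MTF1, and the citrate carrier gene Slc25a1 is known to respond to the sterol sensor SREBP.

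The windows before the start sites of 4 members are shown, because regulators of amino acid carriers (Slc7a5 and Slc1a4), of the zinc exporter and of the citrate carrier are known, as given above, and read short motifs. The 250 bases before each start come from RefSeq, assembly GRCr8, 5′ to 3′ on the gene's own strand. Capitals mark matches, on either strand, to the E-box CACGTG, to TGATGNAA (the core of the element that ATF4 binds with a C/EBP partner) or to TGCACNC or TGCGCNC (the core that MTF1 reads). TCACNCCAC, a sterol response element, was searched as well. The E-box was searched without a regulator named for it here. Slc7a5 (chr19:66872413-66872662, minus strand) holds an E-box and an MTF1 core, Slc1a4 (chr14:98761563-98761812, minus strand) an ATF4 core and an E-box, Slc30a1 (chr13:106021769-106022018, plus strand) a pair of MTF1 cores, and Slc25a1 (chr11:96559804-96560053, plus strand) none of the 4 motifs.
Slc7a5: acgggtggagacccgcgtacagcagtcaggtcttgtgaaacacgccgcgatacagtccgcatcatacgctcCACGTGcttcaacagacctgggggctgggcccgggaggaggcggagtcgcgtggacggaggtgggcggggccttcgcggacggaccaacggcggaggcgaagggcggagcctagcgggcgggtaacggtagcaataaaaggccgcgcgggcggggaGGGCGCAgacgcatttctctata
Slc1a4: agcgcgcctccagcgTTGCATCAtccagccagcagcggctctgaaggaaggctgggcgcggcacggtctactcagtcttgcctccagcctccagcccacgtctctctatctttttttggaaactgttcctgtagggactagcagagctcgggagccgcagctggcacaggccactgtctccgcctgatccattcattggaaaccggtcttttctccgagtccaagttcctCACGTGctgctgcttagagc
Slc30a1: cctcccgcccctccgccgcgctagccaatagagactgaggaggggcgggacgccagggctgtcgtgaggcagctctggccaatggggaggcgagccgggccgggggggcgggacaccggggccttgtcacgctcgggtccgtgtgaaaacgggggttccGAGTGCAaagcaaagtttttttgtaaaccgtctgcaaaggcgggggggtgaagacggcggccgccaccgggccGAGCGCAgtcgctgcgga
Slc25a1: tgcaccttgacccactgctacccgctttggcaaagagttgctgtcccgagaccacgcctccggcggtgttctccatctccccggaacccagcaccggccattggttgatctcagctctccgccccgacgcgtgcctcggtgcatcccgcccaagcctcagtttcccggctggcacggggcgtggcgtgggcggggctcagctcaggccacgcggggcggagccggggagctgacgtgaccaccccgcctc
A single window of 300 bases (50 of them past the start) could be matched by symbol for 135 of 183 members and for 7841 of the genes tested. Only the 250 bases before the start were searched. The E-box lay in 19 members (14.1%), against 8.57% of the genes tested and 5.86% of all 24206 windows. The ATF4 core lay in 5 members (3.70%), against 1.61% and 3.21%, and those 5 were Slc1a4, Slc23a3, Slc35a2, Slc38a1 and Slc7a1. The MTF1 core lay in 42 members (31.1%), against 33.0% and 21.6%, and the sterol element in 2 members (1.48%), against 1.06% and 0.958%. A match is a run of letters and not a binding site.

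Most solute carrier genes moved little across the 10 libraries. The ratio of the highest to the lowest library had a median of 1.42 over the members, against 1.38 over all genes tested. It reached 1.5 in 65 of 183 members (35.5%), against a background of 31.9%, and 2 in 10 members (5.46%), against 5.97%. The shares lie close to the background. The 10 members past 2 were Slc4a7, Slc30a1, Slc26a2, Slc25a30, Slc17a6, Slc2a5, Slc16a10, Slc35e2b, Slc16a3 and Slc28a2. Without nicotine 1 h and PNU 3 h, a choice made after the data were seen, 36 members (19.7%) reached 1.5, against 15.7% of all genes over the same 8 libraries. Without PNU 12 h, likewise, 64 members did so, against 30.6% of all genes. At the other end, the zinc carrier gene Slc39a13, the divalent metal carrier gene Slc11a2 and the sugar phosphate family gene Slc37a3 had ratios of 1.06, 1.07 and 1.09.

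**Figure D1:**
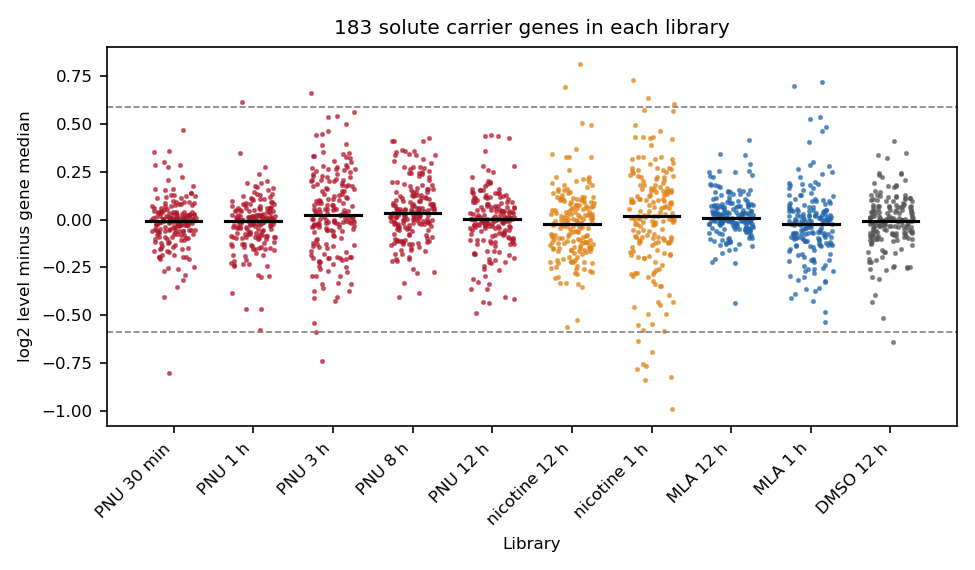
Each point is 1 of the 183 members in 1 library, as its log2 level minus its median over the 10 libraries; black bars are the medians of the members and dashed lines mark 1.5-fold. Points spread most in nicotine 1 h, where 3 members lie above and 8 below the dashed lines.

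Nicotine 1 h held the most members at least 1.5-fold from their own median library, 3 above and 8 below, against 5.65% of all genes. The 3 above were the lactate exporter gene Slc16a3, the zinc importer gene Slc39a5 and the monoamine transporter gene Slc29a4. The 8 below were Slc4a7, Slc26a2, Slc25a36, Slc25a30, Slc35a3, Slc30a1, Slc35e2b and Slc35a5, which include the mitochondrial and nucleotide sugar carriers described below. PNU 3 h had 1 above and 1 below, the lower one being Slc4a7, against 2.53% of all genes. MLA 1 h had 2 above, the fructose transporter gene Slc2a5 and Slc30a1, and 0 below, against 0.483%. In the map of the members with the widest range, nicotine 1 h and PNU 3 h both lie below the median for Slc4a7, Slc36a4, Slc35a3 and Slc25a36, and MLA 1 h lies on the other side of the median for Slc30a1, Slc26a2, Slc25a30 and Slc35e2b.

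**Figure D2:**
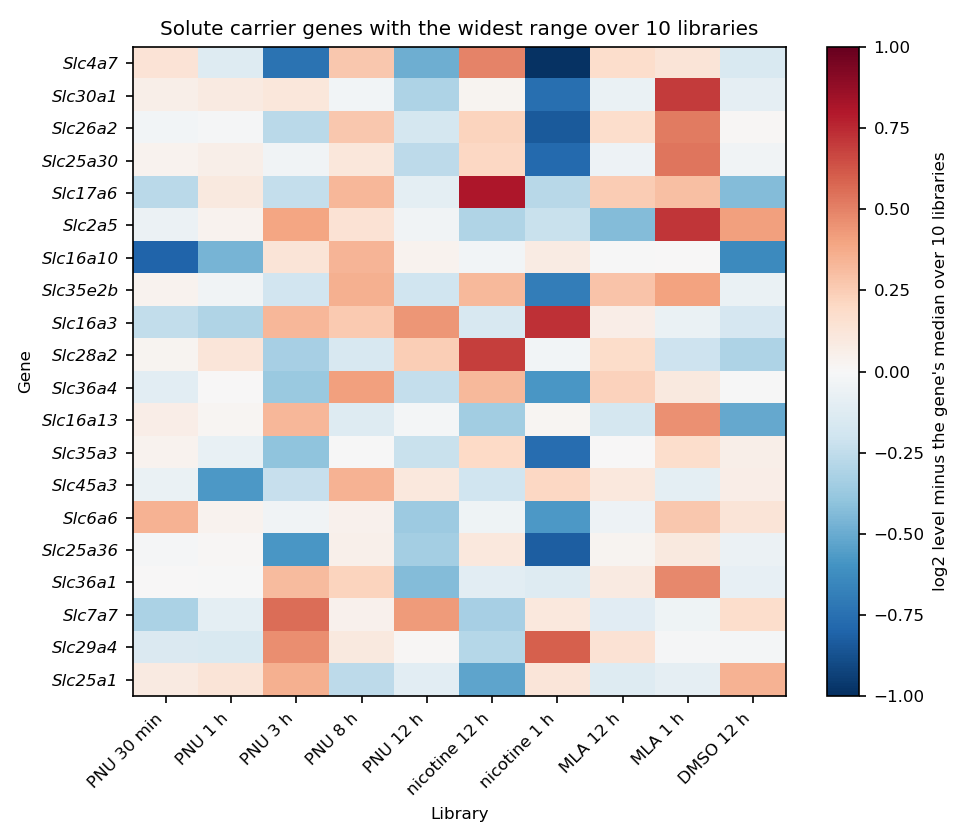
Rows are the 20 members with the widest range and columns the 10 libraries; colour is the log2 level minus the gene's median, red above and blue below, with the scale ending at 1 on either side. The darkest blue cell is Slc4a7 in nicotine 1 h, and Slc17a6 in nicotine 12 h is among the darkest red.

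Among the amino acid carriers, 11 of 24 members spanned at least 1.5-fold, with a median ratio of 1.49. Over all genes these were 31.9% and 1.38. Slc7a5, the transporting subunit of the large neutral amino acid exchanger LAT1, had 3487, 3369.6, 5295, 4424 and 3922 normalised reads over the PNU series, 3122 in nicotine 12 h, 5559 in nicotine 1 h, 4161 in MLA 12 h, 3452 in MLA 1 h and 3593 in DMSO 12 h. The PNU series runs from 30 min to 12 h here and below. Nicotine 1 h and PNU 3 h were the highest libraries, and nicotine 12 h the lowest. The log2 fold of nicotine 12 h over nicotine 1 h was -0.83 (95% counting interval -0.89 to -0.77), while PNU 12 h over PNU 1 h was 0.22 (0.16 to 0.28) and MLA 12 h over MLA 1 h 0.27 (0.21 to 0.33). Slc3a2, the heavy chain that carries LAT1 to the membrane, spanned less, a ratio of 1.23, with 8574, 9451, 10493, 10458 and 10311 normalised reads over the PNU series, 9461 in nicotine 12 h, 10560.2 in nicotine 1 h, 9410.0 in MLA 12 h, 10555 in MLA 1 h and 9057 in DMSO 12 h.

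Slc1a5, the sodium-dependent exchanger of glutamine and other neutral amino acids, had 2297, 2226, 2773, 3115 and 2694 normalised reads over the PNU series, 2573 in nicotine 12 h, 3543 in nicotine 1 h, 2891 in MLA 12 h, 2105 in MLA 1 h and 2219 in DMSO 12 h. Its highest library was again nicotine 1 h, and its PNU series peaked at 8 h. PNU 3 h over PNU 1 h gave a log2 fold of 0.32 (0.23 to 0.40), and PNU 12 h over DMSO 12 h gave a log2 fold of 0.28 (0.20 to 0.36). Nicotine 12 h, at 2573, and MLA 12 h, at 2891, also lay above this DMSO library, MLA 12 h by more than PNU 12 h. The related carrier gene Slc1a4 spanned 1592 in PNU 1 h to 2080.2 in PNU 3 h, and the cationic amino acid carrier gene Slc7a1 spanned 2339 in PNU 1 h to 3286 in PNU 8 h. Slc38a2, a sodium-coupled neutral amino acid importer, ran the other way, with its lowest level in nicotine 1 h, 9179, and its highest in MLA 1 h, 13708. It was lower at 12 h than at 1 h of PNU, log2 fold -0.23 (-0.26 to -0.19), and of MLA, log2 fold -0.41 (-0.45 to -0.38), and higher at 12 h than at 1 h of nicotine (log2 fold 0.36, 0.32 to 0.40).

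Slc6a6, the taurine transporter of pigment epithelium, had 1657, 1333, 1267, 1342 and 1011 normalised reads over the PNU series, 1259 in nicotine 12 h, 872 in nicotine 1 h, 1257 in MLA 12 h, 1563 in MLA 1 h and 1420.0 in DMSO 12 h. Nicotine 1 h and PNU 12 h were the 2 lowest libraries, and PNU 30 min and MLA 1 h the 2 highest. PNU 12 h over DMSO 12 h gave a log2 fold of -0.49 (-0.60 to -0.38), while PNU 30 min was the library with the highest level. The creatine transporter gene Slc6a8 was highest in PNU 3 h, 2541, and nicotine 1 h, 2349, with 1617 to 2028 in the others. The carrier genes Slc36a1 and Slc36a4 had ratios of 1.89 and 1.99. Slc36a1 was lowest in PNU 12 h, 118, and highest in MLA 1 h, 223. Slc36a4 was lowest in nicotine 1 h, 131, and highest in PNU 8 h, 259.8. Slc43a2, a facilitative carrier of large neutral amino acids, was highest in nicotine 1 h, 332, and lowest in MLA 1 h, 186.

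**Figure D3:**
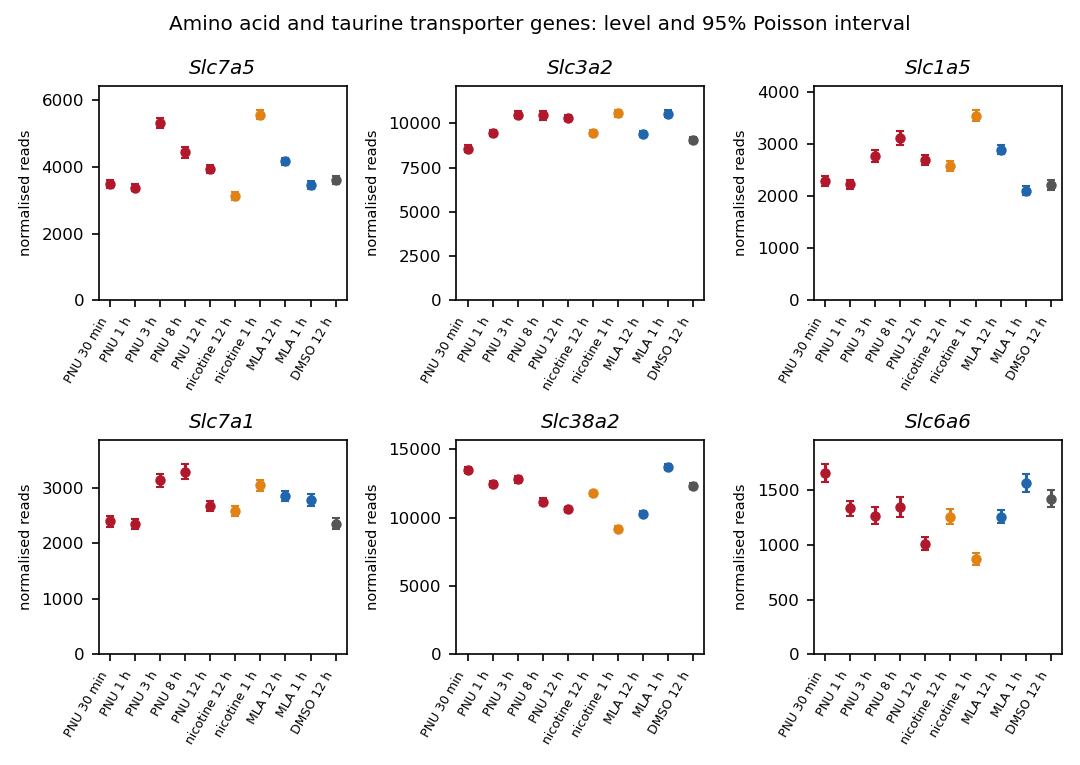
Levels in normalised reads (y axis from 0) of 6 amino acid and taurine transporter genes in the 10 libraries (x axis); bars are 95% Poisson intervals of counting error. Slc7a5 and Slc1a5 are highest in nicotine 1 h, where Slc38a2 and Slc6a6 are lowest.

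The Slc16 family, which holds the lactate and pyruvate transporters, had the widest ranges of any class with at least 5 members. Of its 9 members 7 spanned at least 1.5-fold, with a median ratio of 1.78, against 31.9% and 1.38 over all genes. Levels stayed below 300 normalised reads in all of them but Slc16a1, and their counting intervals are wide. Slc16a3, which exports lactate from glycolytic cells, had 68.2, 65.8, 102, 97.2 and 110.2 normalised reads over the PNU series, 72.6 in nicotine 12 h, 134 in nicotine 1 h, 84.8 in MLA 12 h, 77.6 in MLA 1 h and 72.2 in DMSO 12 h. PNU 1 h was lowest, at 65.8 (95% Poisson interval 51.4 to 83.0), and nicotine 1 h highest, at 134 (95% Poisson interval 114 to 158). PNU 12 h over PNU 1 h gave a log2 fold of 0.74 (0.32 to 1.18), and nicotine 12 h over nicotine 1 h gave a log2 fold of -0.89 (-1.30 to -0.48). Slc16a10, a carrier of aromatic amino acids, had 46.2, 58.4, 88.2, 102 and 82.7 normalised reads over the PNU series, 79.1 in nicotine 12 h, 85.3 in nicotine 1 h, 80.3 in MLA 12 h, 80.7 in MLA 1 h and 51.7 in DMSO 12 h. It was low in DMSO 12 h and in the 2 earliest PNU libraries and higher in the other 7. Slc16a1, the widely expressed lactate transporter, was lowest in nicotine 1 h, 2070.5, and highest in MLA 1 h, 2987. Its partner gene Bsg, which brings both lactate transporters to the membrane, had 33910 to 39893 normalised reads, a ratio of 1.18. In nicotine 12 h against nicotine 1 h, 8 of 9 Slc16 members lay lower, with a median log2 fold of -0.33 against -0.004 over all genes.

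Among carriers of ions and regulators of pH, 5 of 22 members spanned at least 1.5-fold, with a median ratio of 1.40. All genes gave 31.9% and 1.38. Slc4a7, a sodium and bicarbonate cotransporter, had the widest range of all members, with 143, 119, 77.7, 156 and 92.4 normalised reads over the PNU series, 183 in nicotine 12 h, 65.4 in nicotine 1 h, 147 in MLA 12 h, 142 in MLA 1 h and 116 in DMSO 12 h. Nicotine 1 h, PNU 3 h and PNU 12 h were the 3 lowest libraries, and nicotine 12 h was the highest. Nicotine 12 h over nicotine 1 h gave a log2 fold of 1.48 (1.08 to 1.89), PNU 3 h over PNU 1 h -0.61 (-1.06 to -0.17), and PNU 8 h over PNU 3 h 1.01 (0.55 to 1.48). The sulfate transporter gene Slc26a2 was lowest in nicotine 1 h, at 28.1 (95% Poisson interval 19.1 to 39.9), and highest in MLA 1 h, at 72.3 (95% Poisson interval 56.3 to 91.5). The chloride cotransporter gene Slc12a2 lay between 5033 in PNU 12 h and 6474 in nicotine 12 h. The anion exchanger gene Slc4a2 varied least of the class bar the potassium and chloride cotransporter gene Slc12a4, with ratios of 1.16 and 1.14. Slc24a5, the potassium-dependent sodium and calcium exchanger of pigment organelles, was highest in DMSO 12 h, 2266, with 1624 to 1954 in the other 9 libraries.

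Among metal carriers, 8 of 24 members spanned at least 1.5-fold, with a median ratio of 1.36, near the 31.9% and 1.38 of all genes. Slc30a1, which exports zinc across the plasma membrane, had 479, 489, 495, 451 and 369.5 normalised reads over the PNU series, 467 in nicotine 12 h, 272 in nicotine 1 h, 437 in MLA 12 h, 744 in MLA 1 h and 431 in DMSO 12 h. MLA 1 h stood above the other 9 libraries and nicotine 1 h below them, with counting intervals that did not overlap those of any other library. Nicotine 12 h over nicotine 1 h gave a log2 fold of 0.78 (0.57 to 0.99), and MLA 12 h over MLA 1 h gave a log2 fold of -0.77 (-0.93 to -0.61). PNU 1 h over MLA 1 h gave a log2 fold of -0.61 (-0.77 to -0.44), and PNU 1 h over nicotine 1 h gave a log2 fold of 0.85 (0.64 to 1.05). The 2 MTF1 cores in its window are shown above, and the gene of MTF1 had no value and was not analysed here.

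The zinc importer genes Slc39a10 and Slc39a5 were at opposite ends in nicotine 1 h and PNU 3 h. Slc39a10 had 1049, 1014, 840.0, 1139.5 and 1094 normalised reads over the PNU series, 1464 in nicotine 12 h, 841 in nicotine 1 h, 1205 in MLA 12 h, 1015 in MLA 1 h and 917 in DMSO 12 h, with its 2 lowest levels in PNU 3 h and nicotine 1 h. Slc39a5 had 699, 695, 1099, 798 and 823 normalised reads over the PNU series, 656 in nicotine 12 h, 1178 in nicotine 1 h, 768 in MLA 12 h, 691 in MLA 1 h and 749 in DMSO 12 h, with its 2 highest levels there. Nicotine 12 h over nicotine 1 h gave a log2 fold of 0.80 (0.68 to 0.92) for Slc39a10 and -0.85 (-0.98 to -0.71) for Slc39a5. Over DMSO 12 h, nicotine 12 h gave a log2 fold of 0.67 (0.55 to 0.80) for Slc39a10. The zinc carriers of the secretory pathway Slc30a4, Slc30a7 and the nuclear and mitochondrial protein gene Slc30a9 were each lowest in nicotine 1 h or PNU 3 h, with ratios of 1.51, 1.54 and 1.56. The copper importer gene Slc31a1 had 1601 in nicotine 1 h, its lowest level, and 2299.8 in MLA 1 h, its highest.

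**Figure D4:**
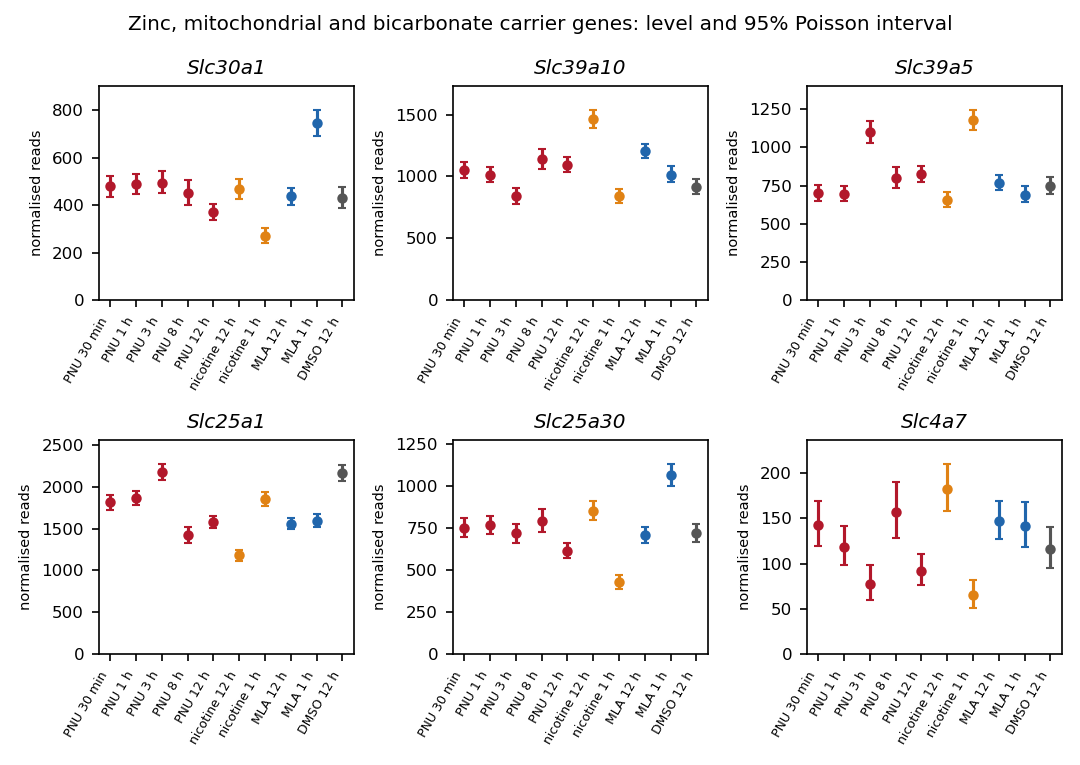
Levels in normalised reads (y axis from 0) of 3 zinc carrier, 2 mitochondrial carrier and 1 bicarbonate transporter genes in the 10 libraries (x axis); bars are 95% Poisson intervals of counting error. Slc30a1 and Slc25a30 are highest in MLA 1 h and lowest in nicotine 1 h, and Slc25a1 is lowest in nicotine 12 h.

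The 34 mitochondrial carriers of the Slc25 family formed the largest subfamily. Of these 34 members 9 spanned at least 1.5-fold, with a median ratio of 1.43, against 31.9% and 1.38 over all genes. Slc25a1, which exports citrate for lipid synthesis, had 1811, 1859, 2171, 1421 and 1578 normalised reads over the PNU series, 1179.8 in nicotine 12 h, 1851 in nicotine 1 h, 1557 in MLA 12 h, 1594 in MLA 1 h and 2158 in DMSO 12 h. PNU 3 h and DMSO 12 h were its 2 highest libraries, and nicotine 12 h and PNU 8 h its 2 lowest. Over DMSO 12 h the log2 fold of PNU 12 h was -0.45 (-0.54 to -0.36), that of nicotine 12 h -0.87 (-0.97 to -0.77) and that of MLA 12 h -0.47 (-0.56 to -0.38). The 3 folds share the DMSO library. The level at 30 min of PNU was 1811, below that of DMSO 12 h. Slc25a30, a carrier first described in kidney mitochondria, had 753, 767, 718, 795 and 613 normalised reads over the PNU series, 851 in nicotine 12 h, 428 in nicotine 1 h, 708 in MLA 12 h, 1064 in MLA 1 h and 719 in DMSO 12 h. MLA 1 h was its highest library and nicotine 1 h its lowest, as for Slc30a1. MLA 12 h over MLA 1 h gave a log2 fold of -0.59 (-0.72 to -0.46), and nicotine 12 h over nicotine 1 h gave a log2 fold of 0.99 (0.83 to 1.15). The pyrimidine nucleotide carrier gene Slc25a36 had its 2 lowest levels in nicotine 1 h, 337, and PNU 3 h, 397, with 471 to 639 elsewhere. Slc25a23, a carrier of ATP-magnesium and phosphate, was the only member at least 1.5-fold lower in PNU 12 h than in PNU 1 h (log2 fold -0.67, -1.06 to -0.29). The genes of the ATP and ADP exchangers Slc25a4 and Slc25a5 and of the phosphate carrier Slc25a3 had ratios of 1.23, 1.24 and 1.14. Slc25a4 and Slc25a5 are close copies, as are Slc25a51 and Slc25a52, and how the authors' counting split their reads is not given in the sources used here.

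Among the 20 Slc35 members, most of which carry nucleotide sugars into the Golgi and endoplasmic reticulum, 7 spanned at least 1.5-fold. Their median ratio was 1.37, and both values lie near the 31.9% and 1.38 of all genes. Slc35a3, which carries UDP-N-acetylglucosamine, had 1053, 976, 775, 1024 and 880.1 normalised reads over the PNU series, 1174 in nicotine 12 h, 604 in nicotine 1 h, 1027 in MLA 12 h, 1160.4 in MLA 1 h and 1067 in DMSO 12 h. Nicotine 1 h and PNU 3 h were its 2 lowest libraries, and nicotine 12 h over nicotine 1 h gave a log2 fold of 0.96 (0.82 to 1.10). Its relative Slc35a5 was highest in nicotine 12 h, 1338, and lowest in nicotine 1 h, 738. Slc35e2b was lowest in nicotine 1 h, 202, and highest in MLA 1 h, 429.8. The GDP-fucose carrier gene Slc35c1 ran the other way, with 595 in nicotine 1 h and 578 in PNU 3 h as its 2 highest levels and 376 in DMSO 12 h as its lowest.

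The smaller classes differed in how many of their members had a wide range. Classes follow the subfamily number. Of all genes tested, 31.9% spanned at least 1.5-fold. Of 14 members of the sugar carrier subfamilies, which include the vitamin carrier gene Slc5a6, 6 spanned at least 1.5-fold. The fructose transporter gene Slc2a5 had 66.1, 70.4, 90.5, 76.0 and 67.3 normalised reads over the PNU series, 55.9 in nicotine 12 h, 59.0 in nicotine 1 h, 50.9 in MLA 12 h, 113 in MLA 1 h and 91.6 in DMSO 12 h. MLA 12 h was lowest, at 50.9 (95% Poisson interval 39.6 to 64.4), and MLA 1 h highest, at 113 (95% Poisson interval 92.9 to 137). Of 4 nucleoside carriers 2 did so. Slc29a4, which carries monoamines, had 752 in nicotine 1 h and 683 in PNU 3 h, against 407 to 548 in the others, and the concentrative nucleoside transporter gene Slc28a2 was highest in nicotine 12 h, 101 (95% Poisson interval 83.3 to 122). Of 12 carriers of organic anions and cations 4 spanned at least 1.5-fold. Slc17a6, a vesicular glutamate transporter gene, had 86.6 (95% Poisson interval 69.9 to 106) in nicotine 12 h and 36.6 (95% Poisson interval 25.4 to 51.2) in DMSO 12 h. Slc51a, a subunit of a bile acid transporter, had 103 (95% Poisson interval 84.6 to 124) in PNU 1 h and 58.2 to 79.9 in the others. Of 7 members of the vitamin and cofactor subfamilies 5 reached 1.5. The proton-coupled folate carrier gene Slc46a1 was highest in nicotine 1 h, 506, and lowest in MLA 1 h, 301. The ascorbate carrier gene Slc23a2 was lowest in PNU 1 h, 1040.4, and highest in PNU 8 h, 1566. Of 5 lipid and choline carriers 1 did so, Slc27a3, of the fatty acid transport proteins, with 161 in PNU 3 h against 91.3 in nicotine 12 h. None of the 4 members of the phosphate, peptide and acetyl-CoA carriers (Slc20a1, Slc20a2, Slc15a4 and Slc33a1) or of the 4 genes that are not carriers (Slc9a3r1, Slc9a3r2, Slc7a6os and Slc4a1ap) reached 1.5.

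After 12 h, the question was how cells given a receptor compound differed from cells given vehicle, and few solute carrier genes did. In PNU 12 h against DMSO 12 h, 2 of 183 members were at least 1.5-fold higher and 0 lower, against a background of 2.76% of genes in either direction. They were Slc16a10 (log2 fold 0.68, 0.17 to 1.20) and Slc16a3 (log2 fold 0.61, 0.18 to 1.05). Next were Slc28a2 (log2 fold 0.56, 0.04 to 1.10) on the high side, and the mitochondrial carrier gene Slc25a40 (log2 fold -0.54, -0.84 to -0.23) and Slc6a6 on the low side. Slc16a10 was also higher in nicotine 12 h (log2 fold 0.61, 0.09 to 1.16) and in MLA 12 h (log2 fold 0.64, 0.13 to 1.16) than in the same DMSO library, and its level at 30 min of PNU, 46.2, lay near the 51.7 of DMSO 12 h.

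In nicotine 12 h against DMSO 12 h, 5 members were higher and 2 lower (background 2.48%). The higher ones were Slc17a6 (log2 fold 1.24, 0.66 to 1.85), Slc28a2 (log2 fold 1.00, 0.50 to 1.53), Slc39a10, Slc4a7 (log2 fold 0.65, 0.30 to 1.00) and Slc16a10. The lower ones were Slc25a1 and Slc2a5 (log2 fold -0.71, -1.21 to -0.22). In MLA 12 h against DMSO 12 h, 2 were higher and 1 lower (background 2.19%). These were Slc17a6 (log2 fold 0.69, 0.09 to 1.31) and Slc16a10 above, and Slc2a5 (log2 fold -0.85, -1.33 to -0.37) below. At 30 min of PNU, Slc17a6 had 40.9, Slc28a2 64.0 and Slc2a5 66.1 normalised reads, against 36.6, 50.6 and 91.6 in DMSO 12 h. Over all members the median log2 fold of PNU 12 h against DMSO 12 h was 0.01, that of nicotine 12 h -0.004 and that of MLA 12 h 0.03.

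Against the negative control at the same time, PNU 1 h had 4 members at least 1.5-fold higher and 2 lower than MLA 1 h (background 1.24%). The higher ones were Slc51a (log2 fold 0.76, 0.29 to 1.24) and the low-level genes Slc16a14, Slc2a9 and Slc8a2. The lower ones were Slc2a5 (log2 fold -0.69, -1.13 to -0.25) and Slc30a1. PNU 12 h had 0 members higher and 2 lower than MLA 12 h (background 1.96%), namely Slc4a7 (log2 fold -0.67, -1.01 to -0.33) and Slc6a16 (log2 fold -0.59, -0.94 to -0.24).

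Between the 2 agonists, more members lay 1.5-fold apart at 1 h than at 12 h, as did more of all genes. The members' shares were 10.4% and 2.73%, beside backgrounds of 8.69% and 4.23%. At 1 h, nicotine lay 972 genes from PNU and 1474 from MLA, while PNU and MLA were 139 genes apart. In PNU 1 h against nicotine 1 h, 10 members were higher and 9 lower (background 8.69%). Slc4a7 (log2 fold 0.86, 0.43 to 1.30) and Slc30a1 led the higher ones, and Slc16a3 (log2 fold -1.03, -1.46 to -0.61) and the carrier gene Slc45a3 (log2 fold -0.78, -1.19 to -0.38) led the lower ones, which also included Slc7a5 (log2 fold -0.72, -0.78 to -0.66) and Slc1a5 (log2 fold -0.67, -0.74 to -0.60). In PNU 12 h against nicotine 12 h, 3 were higher and 2 lower (background 4.23%). Slc37a2, of the sugar phosphate family (log2 fold 0.82, 0.43 to 1.22), Slc7a7 (log2 fold 0.75, 0.24 to 1.28) and Slc16a3 (log2 fold 0.60, 0.19 to 1.02) lay above, and Slc4a7 (log2 fold -0.98, -1.33 to -0.64) and Slc17a6 (log2 fold -0.91, -1.41 to -0.42) below. The fold of Slc16a3 was 0.58, under 1.5-fold, when scaled by the sum of reads. With 1 library each, doses of 100 nM and 1 µM and different compounds were compared side by side, and the difference between the times was not tested.

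In limma's fit over the 6 libraries at 12 h and 1 h of PNU, nicotine and MLA, with time as a covariate, agonists were set against MLA. The fit called 0 of 11188 genes (0.0%) at a Benjamini-Hochberg adjusted p under 0.05, and 87 genes had an unadjusted p under 0.05. The 2 members among these were Slc36a1, at a log2 fold of -0.45 ± 0.16 (SE), and Slc51a, at 0.45 ± 0.18. The lowest adjusted p over the members was 0.996. In this fit and the next, compounds and times stand in for replicates, so the spread includes how they differ.

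Between 12 h and 1 h of the same compound, the members moved most under nicotine. In nicotine 12 h against nicotine 1 h, 15 members were at least 1.5-fold higher and 7 lower, against 14.7% of all genes, which is above the members' own 12.0%. Slc4a7, Slc17a6 (log2 fold 1.08, 0.56 to 1.63) and Slc26a2 (log2 fold 1.06, 0.42 to 1.73) led the higher ones. Slc16a3, Slc29a4 (log2 fold -0.89, -1.06 to -0.72) and Slc39a5 led the lower ones. In PNU 12 h against PNU 1 h, 3 were higher and 1 lower (background 1.91%). The higher ones were Slc16a3, Slc16a6 (log2 fold 0.72, 0.36 to 1.09), of the same family, and Slc45a3 (log2 fold 0.68, 0.28 to 1.08). In MLA 12 h against MLA 1 h, 1 was higher and 4 lower (background 1.39%). Slc43a2 (log2 fold 0.60, 0.34 to 0.87) was the higher one, and Slc2a5 (log2 fold -1.15, -1.61 to -0.71), Slc30a1, Slc16a13 (log2 fold -0.63, -1.04 to -0.23) and Slc25a30 the lower ones. The fold of Slc25a30 was -0.54 when scaled by the sum of reads and -0.58 under TMM, both short of 1.5-fold.

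**Figure D5:**
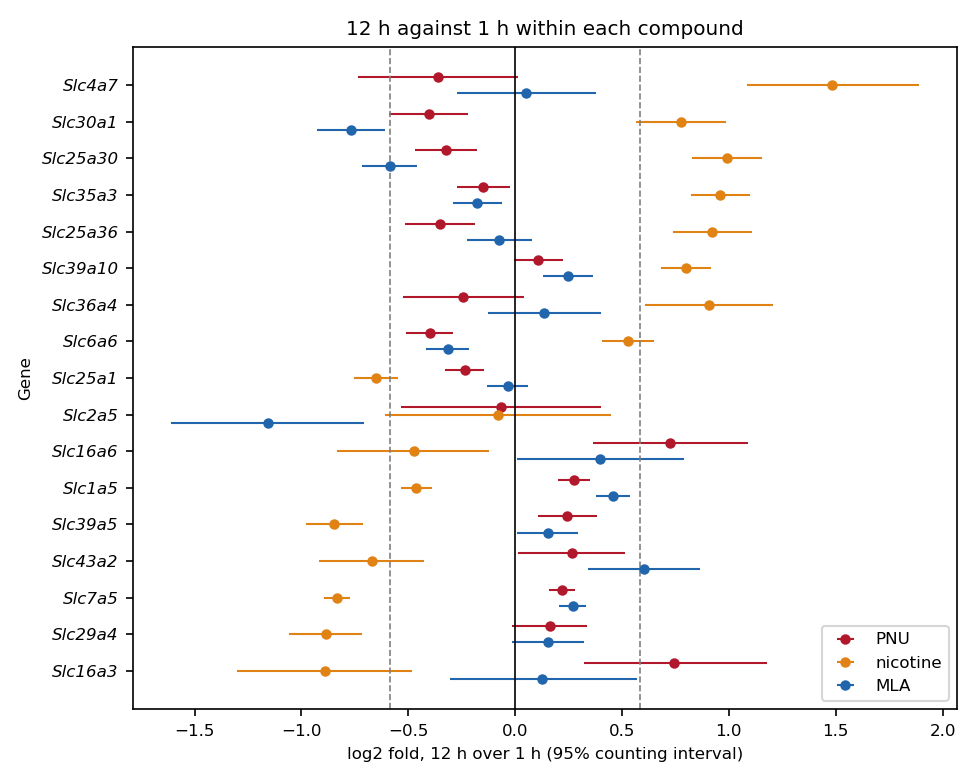
Points are log2 folds of 12 h over 1 h (x axis) for 17 members (y axis) in PNU, nicotine and MLA, with 95% counting intervals; dashed lines mark 1.5-fold. Nicotine points lie on the other side of 0 from both PNU and MLA for most genes drawn, Slc30a1, Slc25a30, Slc6a6, Slc7a5 and Slc1a5 among them. All 3 points of Slc39a10 lie above 0.

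The direction from 1 h to 12 h was the same in all 3 compounds for 24 of 183 members (13.1%), 10 higher and 14 lower, against 12.4% of all genes. Slc39a10 and Slc28a2 were the higher ones whose 3 log2 folds all exceeded 0.1. For Slc39a10 they came to 0.11 (-0.01 to 0.23) for PNU, 0.80 (0.68 to 0.92) for nicotine and 0.25 (0.13 to 0.36) for MLA. Limma, with compound as a covariate, called 0 of 11188 genes (0.0%) for 12 h against 1 h, with 56 at an unadjusted p under 0.05, of which 0 were members. The smallest member p was that of Slc39a10, at a log2 fold of 0.39 ± 0.16 (SE) and an adjusted p of 1.00.

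Without the nicotine pair the same fit called 483 genes (4.32%) and 10 members (5.46%). With 1 residual degree of freedom per gene, limma took the spread from the trend over all genes and none from the gene itself. Members higher at 12 h were Slc1a5 (0.37 ± 0.08 SE, limma adjusted p = 0.000138), Slc46a1, Slc7a5, Slc43a2, Slc16a6 and the organic ion carrier gene Slc22a15. Members lower at 12 h were Slc30a1 (-0.59 ± 0.10 SE, limma adjusted p = 2.69e-06), Slc25a30, Slc6a6 and Slc38a2. The call of all 10 rests on leaving nicotine 1 h and nicotine 12 h out.

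Along the PNU series the members changed little between 30 min and 1 h, where 1 was higher and 0 lower (background 0.626%), namely Slc51a (log2 fold 0.68, 0.22 to 1.16). From 1 h to 3 h, 9 were higher and 4 lower (background 4.77%). The higher ones included Slc39a5 (log2 fold 0.66, 0.52 to 0.80), Slc7a5 (log2 fold 0.65, 0.59 to 0.72) and Slc29a4 (log2 fold 0.62, 0.44 to 0.79). The lower ones included Slc4a7 and Slc25a36 (log2 fold -0.60, -0.79 to -0.41). From 3 h to 8 h, 7 were higher and 3 lower (background 5.05%), with Slc4a7 and Slc36a4 (log2 fold 0.78, 0.45 to 1.12) above and Slc25a1 (log2 fold -0.61, -0.73 to -0.50) below (-0.55, under 1.5-fold, for Slc25a1 when scaled by the sum of reads). From 8 h to 12 h, 0 were higher and 4 lower (background 3.76%), led by Slc4a7 (log2 fold -0.76, -1.16 to -0.36) and Slc36a1 (log2 fold -0.66, -1.02 to -0.30). With 1 library a time, the time and the library cannot be told apart.

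Of 9 amino acid carriers known as ATF4 targets, 7 were members (Slc7a5, Slc3a2, Slc7a1, Slc38a2, Slc1a5, Slc1a4 and Slc6a9). In PNU 3 h against PNU 1 h all 7 were higher, and their median log2 fold was 0.32 against -0.004 over all genes. Of the 7, 1 passed 1.5-fold, as 4.77% of all genes did, and PNU 3 h stood apart over all genes. The rise was small for Slc38a2, from 0.05 to 0.09 in log2 level minus the gene's median, and for Slc6a9, from 0.04 to 0.07. In nicotine 12 h against nicotine 1 h, 1 of 7 was higher and the median was -0.19, against -0.004 over all genes. In PNU 12 h against DMSO 12 h, 6 of 7 were higher, with a median of 0.19 against 0.006 over all genes, and none passed 1.5-fold, as 2.76% of all genes did. Over the same DMSO library, 5 of 7 were higher in MLA 12 h, with a median of 0.13 against -0.005 over all genes. In nicotine 12 h, 4 of 7 were higher, with a median of 0.06 against 0.0001. The 3 comparisons share the DMSO library, and its part in these medians was not tested. Slc6a9, the glycine transporter, was highest in PNU 12 h, 636, against 499 in DMSO 12 h. The gene of ATF4 itself had 19208 in PNU 3 h and 18251 in PNU 1 h, and was highest in DMSO 12 h, 19822. Ddit3, a stress response gene downstream of ATF4, had its highest level in PNU 12 h, 2750.5, against 1973 in DMSO 12 h.

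Of 16 carriers known from pigment epithelium, 10 were members (among them Slc16a1, Slc16a3, Slc4a2, Slc4a7, Slc12a2, Slc6a6, Slc24a5, Slc19a1 and Slc46a1). Of the 10, 4 spanned at least 1.5-fold, against 31.9% of all genes. In PNU 12 h against DMSO 12 h, 4 of 10 were higher, 1 at least 1.5-fold, with a median of -0.09 against 0.006 over all genes. Over the same DMSO library, 6 of 10 were higher in nicotine 12 h, with a median of 0.007 against 0.0001 over all genes. In MLA 12 h, 7 of 10 were higher, with a median of 0.09 against -0.005. The reduced folate carrier gene Slc19a1 lay between 494 in PNU 1 h and 636 in nicotine 1 h. Of 28 carriers that go by other names, 21 passed the filter and 8 spanned at least 1.5-fold, against 31.9% of all genes. The phosphate exporter gene Xpr1 was highest in nicotine 12 h, 396, and lowest in nicotine 1 h, 192. The mitochondrial uncoupling protein gene Ucp2 was lowest in nicotine 12 h, 4391, and highest in nicotine 1 h, 7593. Of 15 genes of partner and control proteins, 14 passed the filter and 5 spanned at least 1.5-fold, against the same 31.9%. The kinase gene Sgk1, which raises the activity of many carriers, was lowest in nicotine 1 h, 1994, and highest in DMSO 12 h, 3178.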

How the data were processed

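PolyA-selected RNA-seq of RPE-J cells was deposited as 39 tables, each for 1 pair of libraries. Per the submitters' processing notes the tools were Trimmomatic 0.36, STAR 2.5.2b, featureCounts of Subread 1.5.2 and DESeq2; build, annotation and strandedness were not given in the sources used here. For each pair the authors deposited the log2 fold change, its p-value before and after adjustment, and the level of both libraries, per the file headers. The deposited level is a signal that behaves as reads divided by a size factor set anew in each table. The deposited p-values set 1 library against 1, with a lowest adjusted value of 0.999715 over all tables, and were not used.

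The step of which a column's values are multiples gave read numbers, all within 0.01 of a whole number, with 0 disagreements between tables. No count model was run on them. They served for scaling (median of ratios over genes with reads in all 10 libraries) and for intervals (exact Poisson for levels, Clopper-Pearson for folds). The tables list 14119 genes above a low level, 13391 of them in all libraries, of which 11188 reached a mean level of 50. Reads are not independent molecules. Columns carry library numbers, 9 of which the file records tie to a sample; the remaining number was taken as PNU 12 h.

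Pairs were described by members and genes at least 1.5-fold apart. limma 3.58.1 (R 4.3.3, trend, Benjamini-Hochberg) was fitted on log2(level + 1) over 11188 genes, for 12 h against 1 h (compound as covariate) and agonists against MLA (time as covariate). The code was also run on simulated data in which no library stood apart as a whole, as nicotine 1 h does here. That run does not show how the fits act on these libraries. Members, classes by subfamily, gene lists, the 1.5-fold rule and the motifs were chosen with earlier results of these data known. The text names members by widest range, largest folds, smallest p or membership of the ATF4 and pigment epithelium lists; other genes named were chosen after their values were seen, and some members that these rules name are not reported here. Alternatives changed the level, the fold, the scaling, the pseudocount, the covariates and the libraries included.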

Additional observations from a re-analysis of the deposited data

Results flagged for a closer look

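For 4 members the direction from 1 h to 12 h differed between compounds, with 1 compound at least 1.5-fold higher and another at least 1.5-fold lower at 12 h. The share of all genes that meet this rule is not given here, so the count is not a result about solute carriers. With 1 library a condition, the difference was not tested, and nicotine 1 h is an end of the range in each.
Slc25a30 had log2 folds of 0.99 in nicotine and -0.59 in MLA, the second just past 1.5-fold. Slc30a1 had 0.78 in nicotine and -0.77 in MLA. Slc43a2 had 0.60 in MLA and -0.67 in nicotine. Slc16a3 had 0.74 in PNU and -0.89 in nicotine. For Slc25a30 and Slc30a1 the lowest library was nicotine 1 h and the highest MLA 1 h, and for Slc43a2 the highest was nicotine 1 h and the lowest MLA 1 h. For Slc16a3 nicotine 1 h was the highest library and PNU 1 h the lowest. The fibroblast and mesenchyme marker sum came to 82979 (PNU 1 h), 123065 (nicotine 1 h) and 80410 (MLA 1 h). The pigment epithelium marker sum came to 6269, 7345 and 5589 in the same order, and the epithelial one to 9412, 8849 and 9857. The part of these sums in the differences was not tested.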

How the results depend on the processing

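Of 130 counts recomputed under an alternative, 73 stayed within 1.5 times, and 0 of 206 folds of members past 1.5-fold changed sign under another scaling. Of 103 such folds, 4 no longer passed 1.5-fold when scaled by the sum of reads and 1 under TMM. Under the sum of reads these were Slc25a30 in MLA 12 h against MLA 1 h (-0.54), Slc16a3 in PNU 12 h against nicotine 12 h (0.58), Slc16a10 in PNU 3 h against PNU 1 h (0.57) and Slc25a1 in PNU 8 h against PNU 3 h (-0.55), and under TMM Slc25a30 again (-0.58). Another scaling moved the median gene of a library by at most 0.036 on the log2 scale. Counts of members below are in either direction. For these other folds, levels and scaling the share of all genes is not given here, so those counts are not results about solute carriers. With a fold of at least 2 they were 0 for PNU 12 h against DMSO 12 h, 2 for nicotine 12 h against DMSO 12 h, 0 for MLA 12 h against DMSO 12 h, 0 for PNU 1 h against MLA 1 h, 0 for PNU 12 h against MLA 12 h, 1 for PNU 1 h against nicotine 1 h, 0 for PNU 12 h against nicotine 12 h, 0 for PNU 12 h against PNU 1 h, 4 for nicotine 12 h against nicotine 1 h, 1 for MLA 12 h against MLA 1 h, 0 for PNU 1 h against PNU 30 min, 0 for PNU 3 h against PNU 1 h, 1 for PNU 8 h against PNU 3 h and 0 for PNU 12 h against PNU 8 h. With a ratio of at least 5 to 4 they were 21 for PNU 12 h against DMSO 12 h, 27 for nicotine 12 h against DMSO 12 h, 23 for MLA 12 h against DMSO 12 h, 22 for PNU 1 h against MLA 1 h, 23 for PNU 12 h against MLA 12 h, 56 for PNU 1 h against nicotine 1 h, 42 for PNU 12 h against nicotine 12 h, 20 for PNU 12 h against PNU 1 h, 75 for nicotine 12 h against nicotine 1 h, 27 for MLA 12 h against MLA 1 h, 8 for PNU 1 h against PNU 30 min, 42 for PNU 3 h against PNU 1 h, 40 for PNU 8 h against PNU 3 h and 32 for PNU 12 h against PNU 8 h. With a mean level of at least 10 they were 12 for PNU 12 h against DMSO 12 h, 16 for nicotine 12 h against DMSO 12 h, 14 for MLA 12 h against DMSO 12 h, 15 for PNU 1 h against MLA 1 h, 7 for PNU 12 h against MLA 12 h, 14 for PNU 12 h against nicotine 12 h, 8 for PNU 12 h against PNU 1 h, 13 for MLA 12 h against MLA 1 h, 10 for PNU 1 h against PNU 30 min, 26 for PNU 3 h against PNU 1 h, 19 for PNU 8 h against PNU 3 h and 11 for PNU 12 h against PNU 8 h. With a mean level of at least 200 they were 0 for PNU 12 h against DMSO 12 h, 2 for nicotine 12 h against DMSO 12 h, 0 for MLA 12 h against DMSO 12 h, 1 for PNU 1 h against MLA 1 h, 0 for PNU 12 h against MLA 12 h, 0 for PNU 12 h against nicotine 12 h, 0 for PNU 12 h against PNU 1 h, 3 for MLA 12 h against MLA 1 h, 0 for PNU 1 h against PNU 30 min, 5 for PNU 3 h against PNU 1 h, 4 for PNU 8 h against PNU 3 h and 1 for PNU 12 h against PNU 8 h, and 29 members spanned at least 1.5-fold over the libraries. Scaling by the sum of reads gave 7 for PNU 12 h against PNU 8 h. Without nicotine 1 h and PNU 3 h 36 members spanned at least 1.5-fold (15.7% of all genes), and without PNU 12 h 64 did (30.6% of all genes); both were chosen after the data were seen.

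In limma's fits each pair or time was left out in turn. For 12 h against 1 h this gave between 0 and 483 genes and between 0 and 10 members, the highest values without the nicotine pair and with 1 residual degree of freedom. For agonists against MLA it gave 0 genes and 0 members without either time, where the lone MLA library was assumed to vary like the agonists. The other alternatives gave 0 calls. The fit of 12 h against 1 h pairs the libraries by compound, and without that term it gave 0 genes, with 118 at an unadjusted p under 0.05. No replicate number pairs the libraries. A count model on the read numbers was planned as an alternative and was not run. Depth limits members near the lowest level: Slc26a2 in nicotine 1 h had 28.1 (95% Poisson interval 19.1 to 39.9) normalised reads.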
